A study of Mus musculus with 18 samples.

Results

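The hormone genes of the mouse islet were followed through sorted alpha, beta and delta cells with and without interferon gamma (IFNγ). They were 9 of the 55487 gene identifiers in each library's table, namely Gcg, Ins1, Ins2, Sst, Ppy, Pyy, Iapp, Ghrl and Ucn3, and were chosen by symbol through the GENCODE M21 annotation of GRCm38. Each of the 9 identifiers was found, and all 9 passed the filter on low counts. The libraries came from pancreatic islets of C57BL/6 mice, which the study describes as 12-week-old males. Islets were cultured for 20 h with IFNγ at 5 ng/mL or without it, and cells were then separated by flow cytometry. The gates split CD24-high cells (delta) from CD24-low cells and then parted the latter by CD71, with alpha cells negative and beta cells positive, all from the Epcam-positive fraction that lacked CD45, TER119 and CD31. The 6 groups of alpha control, alpha IFNγ, beta control, beta IFNγ, delta control and delta IFNγ had 3 libraries each. According to the study every library is its own biological sample, and the sources used here do not give the number of animals behind a library.

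Islet endocrine cells are named for the peptide hormone that they secrete. Alpha cells make glucagon to raise blood glucose, beta cells make insulin to lower it, and delta cells make somatostatin, which restrains both neighbours. Several further peptides of the islet are second hormones, stored beside a main hormone or made by rarer cells, such as pancreatic polypeptide in PP cells and ghrelin in epsilon cells. IFNγ is a T cell cytokine that is present in the islets in type 1 diabetes.

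Library totals ranged from 6128845 to 11531734 expected counts, and the 9 hormone genes took between 1.79% and 11.2% of them. A gene is followed across libraries in CPM, its count scaled to the library total after the low-count filter, as adjusted by TMM (trimmed mean of M-values). Where genes are set against each other, TPM is used, which divides by gene length. Adjusted p-values come from the quasi-likelihood F test of edgeR with adjustment by Benjamini-Hochberg over 17338 genes, a gene is called at an adjusted p under 0.05, and n = 3 libraries per group. The dates carried in the file names number 9, of which 5 cover 1 library each. A single date held the controls of all 3 cell types (alpha control 2, beta control 2 and delta control 3), while delta cells with and without IFNγ never shared one. Beta control 3 is named after papain and not after CD71 in its file name. In sorted bulk cells, RNA carried by a few cells of another type and a low level of RNA in every cell cannot be told apart.

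The upstream sequences shown are those of Gcg, Ins1 and Sst, main hormone genes of the 3 cell types. They are shown because they carry the binding motifs for which these promoters are known. They are the 250 bases before the RefSeq start of each gene on GRCm38.p6, written 5′ to 3′ on the strand of the gene. Capitals mark the E-box CATCTG or its reverse complement CAGATG, a site for basic helix-loop-helix factors such as NEUROD1, and the cyclic AMP response element TGACGTCA, the site of CREB.
Gcg (glucagon), chr2:62483654-62483903, minus strand: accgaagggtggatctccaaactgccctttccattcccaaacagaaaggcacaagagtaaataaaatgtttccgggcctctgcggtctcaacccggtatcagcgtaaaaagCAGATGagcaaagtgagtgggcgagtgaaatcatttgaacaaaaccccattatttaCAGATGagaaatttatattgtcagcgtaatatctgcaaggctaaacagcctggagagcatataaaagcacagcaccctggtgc
Ins1 (insulin I), chr19:52264047-52264296, plus strand: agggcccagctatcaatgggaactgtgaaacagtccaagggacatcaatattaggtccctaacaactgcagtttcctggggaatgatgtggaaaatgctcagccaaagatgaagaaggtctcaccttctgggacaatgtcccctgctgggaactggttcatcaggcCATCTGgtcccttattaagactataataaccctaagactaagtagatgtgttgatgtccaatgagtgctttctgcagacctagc
Sst (somatostatin), chr16:23890845-23891094, minus strand: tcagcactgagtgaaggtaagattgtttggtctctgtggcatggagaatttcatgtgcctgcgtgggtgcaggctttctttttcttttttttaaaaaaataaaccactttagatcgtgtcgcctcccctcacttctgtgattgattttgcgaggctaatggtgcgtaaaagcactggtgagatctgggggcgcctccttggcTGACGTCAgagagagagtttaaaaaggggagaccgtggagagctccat
The E-box stood 139 and 83 bases before the start of Gcg and 84 bases before that of Ins1, counted from its first base as printed. The cyclic AMP response element stood 48 bases before the RefSeq start of Sst, in a window whose end lies inside the longer GENCODE model of the gene. Of the hormone genes, 8 were in the promoter table with 12 starts, and Ins2 was not. CATCTG on either strand was in 4 of these 12 windows, 1 each of Gcg, Ins1, Iapp and Ucn3, and in 14.4% of the 32851 windows of all genes. TGACGTCA was in 1 of the 12 windows, that of Sst, and in 1.55% of all windows.

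Each main hormone was highest in the cells sorted for it. Gcg, on chromosome 2 from 62474530 to 62483650, encodes proglucagon. It stood at 117436, 88866 and 78064 CPM in the alpha controls, at 1144, 2977 and 154 in the beta controls, and at 77.6, 246 and 2263 in the delta controls. The alpha libraries thus lay above all others, while beta and delta libraries overlapped. The control means were 94789 ± 20344 (SD, n = 3) in alpha and 1425 ± 1432 CPM in beta cells, 66.5-fold apart, with a log2 fold change of 6.06 (SE 1.32, adjusted p = 0.00284). Delta against alpha control cells differed by -6.78 on the log2 scale (SE 1.37, adjusted p = 0.00152). Delta and beta controls did not pass the test for Gcg (log2 fold change -0.73, SE 1.07, adjusted p = 0.689). With beta controls 1 and 3 and delta control 3 left out together, the log2 fold change was -4.21. That fit kept beta control 2 alone, the beta control with the most Gcg, and dropped delta control 3, the delta control with the most.

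Ins2, on chromosome 7 from 142678656 to 142743381, is the mouse counterpart of the insulin gene of other mammals. Its levels were 29883, 25346 and 29254 CPM in the beta controls, 1728, 6503 and 633 in the alpha controls, and 71.2, 45.0 and 196 in the delta controls. No library of any of these groups overlapped another group. Control alpha cells were lower than control beta cells by -3.25 on the log2 scale (SE 0.80, adjusted p = 0.00654), and control delta cells by -8.08 (SE 0.99, adjusted p = 7.61e-06). Ins1, on chromosome 19 from 52264297 to 52265476, is a second insulin gene that arose by retroposition. It had 14924, 10734 and 12156 CPM in the beta controls, 574, 2397 and 359 in the alpha controls, and 20.9, 24.7 and 84.6 in the delta controls. The groups were again apart, with log2 fold changes against beta of -3.51 (SE 0.79, adjusted p = 0.00355) in alpha and -8.18 (SE 0.98, adjusted p = 5.49e-06) in delta cells.

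Sst, on chromosome 16 from 23889573 to 23890958, is the main hormone of delta cells. The delta controls held 35919, 34772 and 14715 CPM, the alpha controls 15.7, 74.1 and 6.84, and the beta controls 68.8, 55.7 and 0. The mean of the delta controls was 884-fold that of the alpha controls (log2 fold change 9.79, SE 1.32, adjusted p = 2.77e-05) and 686-fold that of the beta controls (9.42, SE 1.30, adjusted p = 2.87e-05). Beta control 3 had 0 Sst counts, which at its depth allows up to 0.456 CPM. Alpha and beta controls overlapped and did not pass the test for Sst (log2 fold change -0.37, SE 0.93, adjusted p = 0.828).

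On the shared date of the 3 control groups, the main hormones of other cells were high together. Counted over Gcg, Ins1, Ins2 and Sst in the controls of the cells not sorted for them, the library of that date was the highest of its group in 7 of 8 cases, the exception being Sst in beta control 1. Within that date each main hormone was again highest in its own cells. Gcg was 88866 CPM in alpha against 2977 in beta, Ins2 25346 in beta against 6503 in alpha and 196 in delta, and Sst 14715 in delta against 74.1 in alpha and 55.7 in beta.

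**Figure D1:**
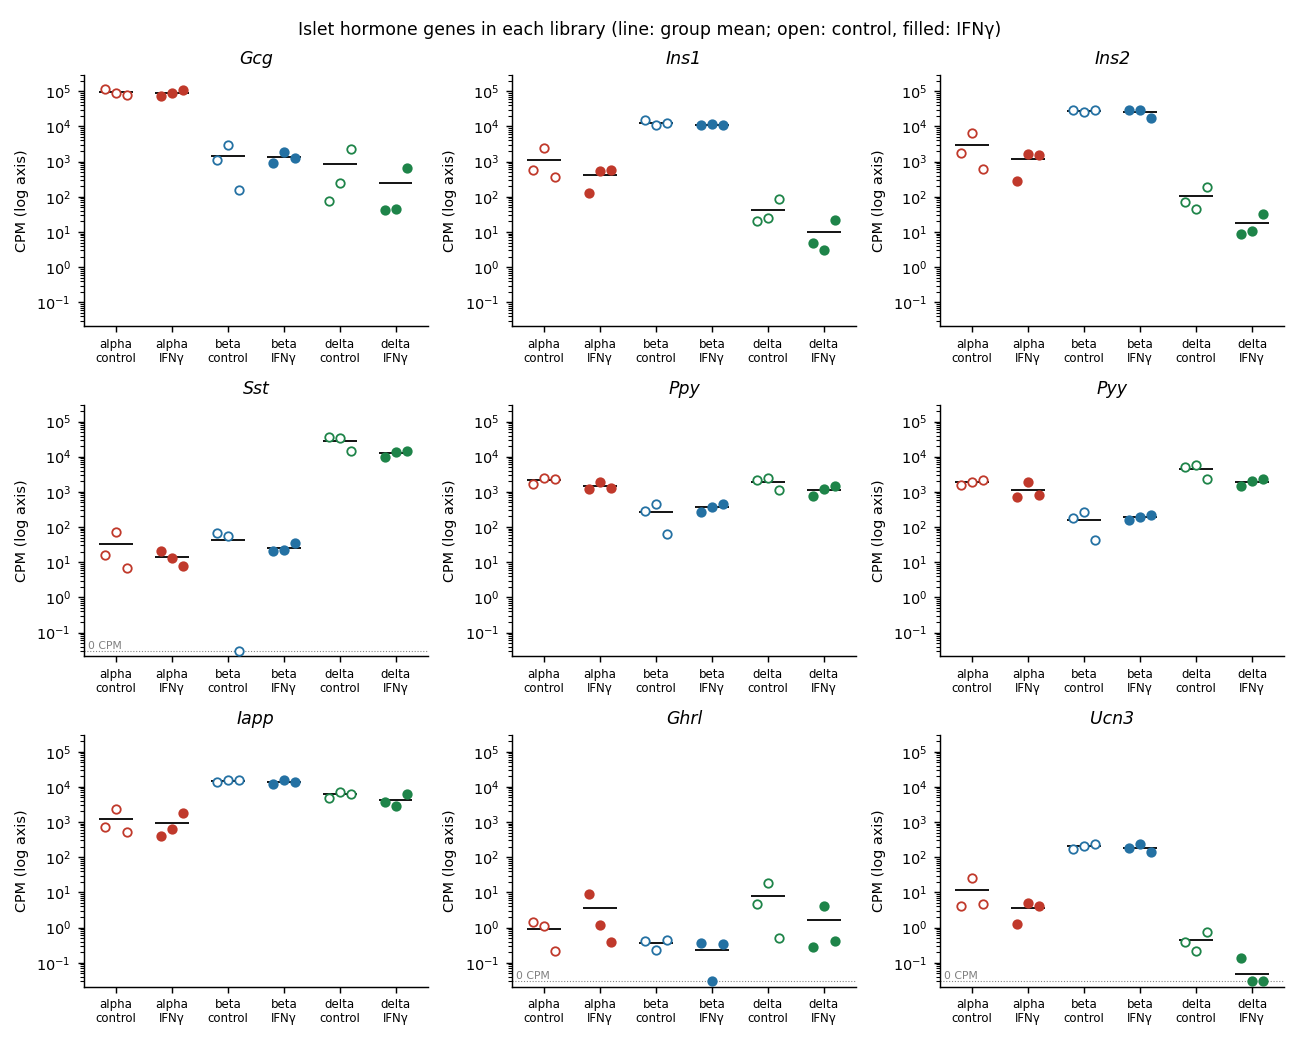
CPM of the 9 hormone genes on a log axis, with 1 point per library, 3 per group, open for control and filled for IFNγ, and a line at each group mean. Gcg is highest in alpha libraries, Ins1, Ins2, Iapp and Ucn3 in beta libraries and Sst in delta libraries, while Ppy and Pyy sit at similar heights in alpha and delta libraries; points on the dotted line have 0 CPM.

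In the comparison of control cells, 7 of the 9 hormone genes were called between alpha and beta cells, 3 higher in alpha (Gcg, Ppy and Pyy) and 4 lower (Ins1, Ins2, Iapp and Ucn3). This compares with 19.7% of all tested genes, 9.56% higher and 10.1% lower. Between delta and beta controls 7 were called, 4 higher in delta (Sst, Ppy, Pyy and Ghrl) and 3 lower (Ins1, Ins2 and Ucn3), beside 20.5% of all genes, 11.4% higher and 9.11% lower. Between delta and alpha controls 6 were called, with Sst and Iapp higher in delta and Gcg, Ins1, Ins2 and Ucn3 lower, beside 19.7% of all genes, 10.9% higher and 8.77% lower. The median log2 fold change of the 9 genes was -0.37, -0.73 and -0.14 in these comparisons, against 0.04, 0.05 and 0.03 over all genes. The genes were chosen as hormones of these cells, so a high share of calls follows from the choice. IFNγ-treated cells gave 7 calls between alpha and beta cells, 3 higher and 4 lower, beside 27.1% of all genes (13.8% higher and 13.3% lower). Between treated delta and beta cells 7 were called, 3 higher and 4 lower, beside 36.4% (18.4% and 18%), and between treated delta and alpha cells 6, 2 higher and 4 lower, beside 16% (8.87% and 7.13%).

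The main hormone of each sort was also set against the others per length, as its share in the summed TPM of the 9 genes. Gcg made up 89.6%, 73.0% and 85% in the alpha controls and 91.6%, 86.1% and 89.6% in the alpha IFNγ libraries. Ins1 and Ins2 together made up 82.9%, 76.4% and 83.2% in the beta controls and 83.5%, 80.1% and 74.3% in the beta IFNγ libraries. Sst made up 68.5%, 64.5% and 54.2% in the delta controls and 58.8%, 64.0% and 55.9% in the delta IFNγ libraries. Delta libraries thus had the lowest share of their main hormone in both treatments. In delta controls the mean shares of Pyy, Iapp and Ppy were 14.8%, 12.5% and 7.72%, and those of Gcg, Ins2 and Ins1 were 1.84%, 0.615% and 0.0801%. The share falls with second hormones as well as with RNA of other cells, so a low share does not by itself mean low purity. Shares did not separate the treatments in any cell type: the mean moved by 6.56 percentage points in alpha cells (exact permutation test, two-sided, p = 0.2), by -1.48 in beta cells (exact p = 0.7) and by -2.78 in delta cells (exact p = 0.7). With 3 against 3 libraries this test cannot go below 0.1. Within dates, the alpha share differed by -3.46 points on one shared date and by 16.6 on the other, and the beta share by 0.657 and 3.77.

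**Figure D2:**
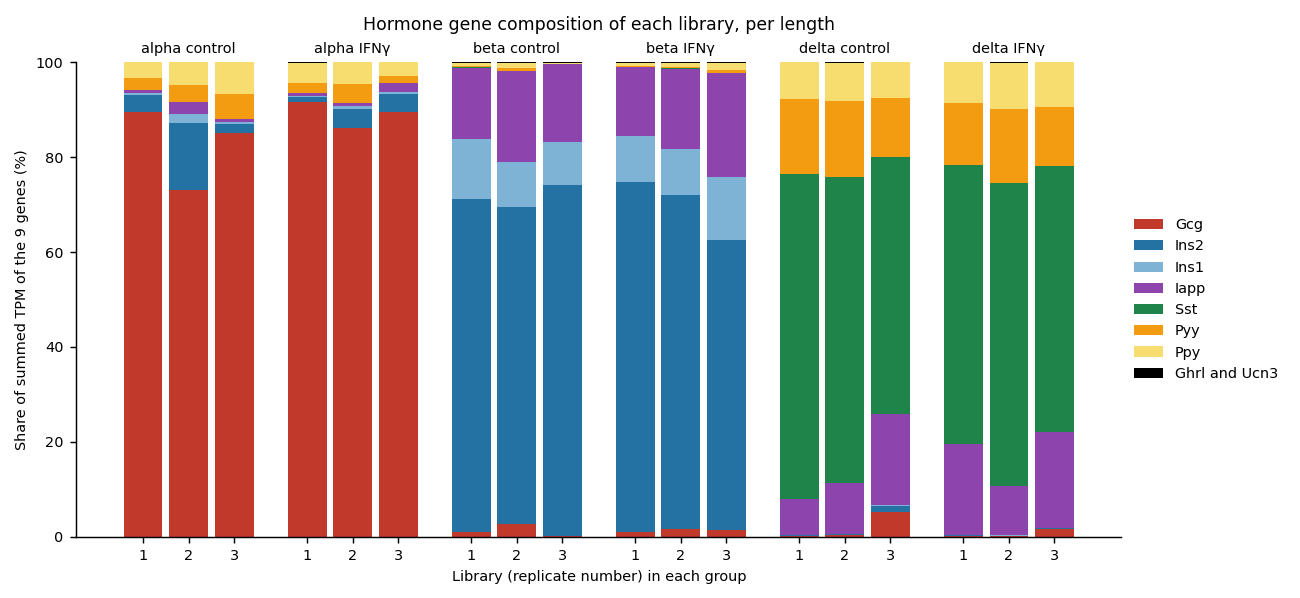
Share of each hormone gene in the summed TPM of the 9 genes, in percent, with 1 stacked bar per library and 3 libraries per group. Gcg fills 73.0% to 91.6% of the alpha bars, Ins2 and Ins1 together 74.3% to 83.5% of the beta bars, and Sst 54.2% to 68.5% of the delta bars, where Iapp, Pyy and Ppy take most of the rest.

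Per length, the order of the hormone genes differed between the cell types. In alpha controls Gcg had 65697 ± 8725 TPM, followed by Ins2 (5248 ± 5285), Ppy (3818 ± 1147), Pyy (2997 ± 934), Iapp (1017 ± 810), Ins1 (698 ± 668), Sst (31.9 ± 34.9), Ucn3 (4.99 ± 5.08) and Ghrl (1.13 ± 0.833). The ranges of neighbours overlapped from Ins2 to Pyy, between Iapp and Ins1, and from Sst to Ghrl, so those orders are not fixed. In beta controls Ins2 had 47911 ± 6957 TPM, Iapp 11488 ± 2286 and Ins1 7017 ± 419, each apart from the next, followed by Gcg (853 ± 924), Ppy (412 ± 334), Pyy (214 ± 163), Ucn3 (79.6 ± 16.5), Sst (36.7 ± 31.8) and Ghrl (0.267 ± 0.0757). Gcg, Ppy, Pyy and Ucn3 overlapped in turn there, as did Sst and Ghrl. In delta controls Sst had 27255 ± 12356 TPM, apart from Pyy (6516 ± 3103), Iapp (4807 ± 1360) and Ppy (3326 ± 1409), whose ranges overlapped. Gcg (488 ± 672), Ins2 (189 ± 136), Ins1 (24.4 ± 19.2), Ghrl (14 ± 17.9) and Ucn3 (0.167 ± 0.0929) came after them in delta cells, where Gcg overlapped Ins2 and Ins1 overlapped Ghrl. Iapp and Pyy changed places in delta IFNγ cells (2849 ± 481 and 2553 ± 1037 TPM), with overlapping ranges in both treatments.

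Markers other than hormones were read in the same libraries. The 11 alpha cell markers summed to 5850 to 7014 CPM in alpha controls, 622 to 717 in beta controls and 284 to 438 in delta controls. Loxl2, a member of that list, went against it with 46.2 CPM in beta controls and 1.66 in alpha controls. For beta cells, 14 of 15 listed genes were in the tables and summed to 3960 to 6881 CPM in beta controls, 1043 to 1534 in alpha controls and 378 to 398 in delta controls. Slc30a8, the zinc transporter of hormone granules, was at 516 CPM in alpha and 426 in beta controls. Other members of the list also went against it, with Ucp2 at 319 CPM in alpha and 193 in beta controls, Nnat at 8.60 in delta and 6.84 in beta controls, and Npy1r and Adcyap1 at 0 in beta controls. The 9 delta markers summed to 2059 to 2589 CPM in delta controls, 147 to 178 in alpha controls and 85.9 to 98.0 in beta controls, and Cckbr was at 0 in all groups. Cd24a, the gene of the CD24 protein on which delta cells were gated, is in this list. It had 976 CPM in delta, 1.09 in alpha and 6.23 in beta controls, so part of the delta sum follows from the gate. Genes of acinar cells, which make digestive enzymes, summed to 1787, 2028 and 3840 CPM in delta controls, to 1970, 723 and 2912 in delta IFNγ libraries and to 2779, 129 and 3.04 in beta controls, with at most 71.8 CPM in an alpha library. The 13 duct genes summed to 443 to 1530 CPM, the 10 endothelial genes to 0.761 to 12.4, the 12 immune genes to 3.48 to 16.1 and the 12 mesenchymal and Schwann genes to 6.04 to 24.7. Cd3e was at 0 in every group, Prss1 was at 0 outside the delta controls, and the part of these cells in the hormone values was not tested.

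Insulin RNA in alpha libraries moved with the other beta cell genes. In alpha control 2, Ins1, Ins2, Iapp and Ucn3 stood at 19%, 23.1%, 15.9% and 12.5% of the mean of the beta controls in CPM, beside a median of 22.7% for 12 beta markers that are no hormones. In alpha control 3 the hormones stood at 2.85%, 2.25%, 3.41% and 2.23% beside a marker median of 3.75%, and in alpha IFNγ 1 at 1.01%, 1.03%, 2.59% and 0.627% beside 2.17%. Alpha IFNγ 3 was unlike these, since Ins1 and Ins2 were at 4.66% and 5.60% but Iapp at 11.8%, beside a marker median of 16.4%. In beta libraries, Gcg stood at 0.163% to 3.14% of the mean of the alpha controls, beside alpha marker medians of 1.72% to 4.56% in the controls and 7.83% to 9.29% with IFNγ. Delta libraries had Gcg at 0.0454% to 2.39% beside alpha marker medians of 1.61% to 6.67%. Single markers in these medians spread widely. Beta markers ran from 5.50% to 151% in alpha control 2, where Slc30a8, for one, was as high in alpha as in beta controls. Alpha markers spread more, from 0% to 3529% in beta control 3 and from 0.114% to 265% in delta IFNγ 2. The part of carried-over cells in the hormone values was not tested.

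Iapp was the exception among the hormones of beta cells. The gene, on chromosome 6 from 142298423 to 142303961, encodes islet amyloid polypeptide, which beta cells release with insulin, and it overlaps Slco1a5 on the other strand, so that its counts are uncertain unless the counting used strand, which the libraries kept. It had 13358, 15949 and 15918 CPM in the beta controls, 4868, 7186 and 6308 in the delta controls, and 700, 2401 and 514 in the alpha controls. Delta libraries lay between the other groups without overlap. Control delta cells were 5.08-fold above control alpha cells (2.34 on the log2 scale, SE 0.55, adjusted p = 0.00526), and at 0.406 of the beta level with a log2 fold change of -1.30 (SE 0.53, adjusted p = 0.0972). That difference from beta passed the threshold in IFNγ-treated cells (log2 fold change -1.67, SE 0.54, adjusted p = 0.0216). Leaving out beta IFNγ 2, delta IFNγ 1 or delta IFNγ 2 ended that call, with adjusted p between 0.0532 and 0.0839, and with the date as a term it was -0.68 (adjusted p = 0.642). For controls the omission of alpha control 2 made it a call, with an adjusted p of 0.0421, as did an offset for GC content (-1.60, adjusted p = 0.0310).

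Iapp in delta cells was not accompanied by insulin. In the delta controls Iapp stood at 32.3% to 47.7% of the beta control mean in CPM, while Ins2 stood at 0.160% to 0.695%, Ucn3 at 0.105% to 0.352% and the median of the 12 other beta markers at 1.03% to 4.03%. With IFNγ, delta cells had Iapp at 18.4% to 42.8% and Ins2 at 0.0316% to 0.119%. The ratio of Iapp to Ins2 per length ran from 13.6 to 177 in the 6 delta libraries, from 0.197 to 0.360 in the beta libraries and from 0.173 to 0.573 in the alpha libraries. On the log2 scale delta cells exceeded beta cells by 7.89 and alpha cells by 7.65 in this ratio, each with an adjusted p of 0.009 (exact permutation test within treatments, two-sided, 6 against 6 libraries, adjusted over 18 tests, smallest unadjusted p possible 0.005). Alpha and beta cells differed by 0.23, with overlapping ranges and an adjusted p of 0.594 in the same exact test. Delta control 3, the delta library with the most Ins2, had the lowest of the delta ratios. Delta libraries held less Iapp than beta libraries, so their higher ratio to Ins2 reflects their low Ins2.

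**Figure D3:**
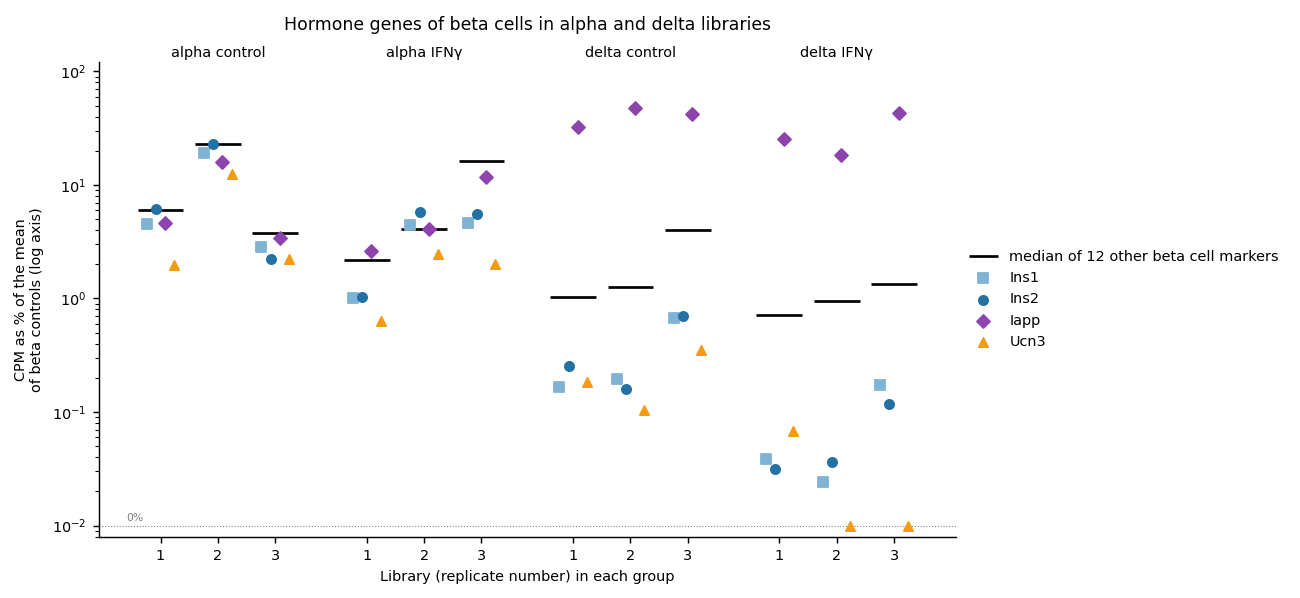
CPM of Ins1, Ins2, Iapp and Ucn3 in each alpha and delta library, as percent of the mean of the beta controls on a log axis, with a bar at the median of 12 other beta cell markers. In delta libraries Iapp lies at 18.4% to 47.7% and the other 3 hormones at or below 0.695%; in alpha libraries all 4 are at or below 23.1%, with alpha control 2 the highest.

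No difference in the ratio of both insulin genes was called between the sorts. Ins2 exceeded Ins1 per length by 4.62-fold to 8.08-fold in beta libraries, by 5.40-fold to 8.45-fold in alpha libraries and by 4.64-fold to 11.5-fold in delta libraries. The log2 ratio of Ins1 to Ins2 averaged -2.71 ± 0.31 in beta, -2.89 ± 0.24 in alpha and -2.88 ± 0.54 in delta cells (SD, n = 6). The difference was -0.18 between alpha and beta cells, -0.17 between delta and beta cells and 0.01 between delta and alpha cells, with adjusted p of 0.388, 0.602 and 0.95 in the exact permutation test. The 2 genes are near-identical copies, and the split of shared reads between them was estimated in the counting. In delta cells the ratio rests on as few as 24 Ins1 counts and 64 Ins2 counts in a library. The per-length values depend on the gene models, since the effective length was 847 to 937 bases for Ins1 and 249 to 342 for Ins2, and by counts Ins2 exceeded Ins1 by 1.55-fold to 3.41-fold.

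Ucn3 encodes urocortin 3, a peptide of mature beta cells that acts on the CRHR2 receptor of delta cells. The beta controls had 175, 203 and 240 CPM, the alpha controls 4.07, 25.7 and 4.6, and the delta controls 0.382, 0.216 and 0.727. The 3 groups were apart, and Ucn3 had the smallest adjusted p of the hormone genes between delta and beta controls (log2 fold change -8.82, SE 0.76, adjusted p = 1.01e-07). Control alpha cells were lower than beta cells by -4.17 (SE 0.56, adjusted p = 2.83e-05). Relative to Ins2 per length, Ucn3 was 1.96-fold lower in alpha than in beta cells, with overlapping ranges and an adjusted p of 0.0164 in the exact permutation test. In delta libraries Ucn3 had 13 counts over the controls and 1 over the IFNγ libraries, and its ratio to Ins2 did not differ from that of beta cells by the exact test (log2 difference -0.60, adjusted p = 0.521). Without delta IFNγ 1, which holds that count, the difference was -1.02 with an adjusted p of 0.00818 in that test. Delta IFNγ 2 and 3 had 0 Ucn3 counts, so their ratios reflect the 0.5 added to each count and the level of Ins2. The test therefore cannot decide whether this ratio differs in delta cells.

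Ppy and Pyy were higher in alpha and delta libraries than in beta libraries, and the part of PP cells in this was not tested. They encode pancreatic polypeptide and peptide YY, related peptides that act on Y receptors, and they are neighbours on chromosome 11, Ppy from 102099930 to 102101319 and Pyy from 102106676 to 102107832. Ppy stood at 1694, 2410 and 2352 CPM in the alpha controls, 2239, 2476 and 1159 in the delta controls, and 287, 463 and 62.4 in the beta controls. Alpha and delta libraries overlapped, with a log2 difference of -0.14 (SE 0.47, adjusted p = 0.865) and a 95% interval from -1.12 to 0.85, and both lay above all beta controls. The log2 fold change against beta was 2.99 in alpha (SE 0.51, adjusted p = 3.00e-04) and 2.85 in delta cells (SE 0.50, adjusted p = 3.64e-04).

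Pyy differed more between the sorts. The delta controls had 5005, 5741 and 2326 CPM, the alpha controls 1574, 1960 and 2181, and the beta controls 179, 270 and 41.5. Delta and alpha libraries did not overlap, but delta control 3 was close to the alpha range and the difference did not pass the test (log2 fold change 1.19, SE 0.49, adjusted p = 0.0979). It passed without beta control 3 (1.20, adjusted p = 0.0293) and with an offset for GC content (1.57, adjusted p = 0.00806). Both exceeded beta cells, by 26.7-fold in delta (adjusted p = 5.96e-06) and by 11.7-fold in alpha controls (adjusted p = 1.12e-04). Beta control 3 had the least Ppy and Pyy of the beta libraries, as it had the least Gcg and Sst.

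The balance of Ppy and Pyy set delta cells apart from alpha and beta cells in both treatments. Per length, Ppy was 1.13 to 2.04 times Pyy in the 6 alpha libraries, 1.79 to 2.35 times in the beta libraries and 0.482 to 0.737 times in the delta libraries. The mean log2 ratio was 0.53 ± 0.35 in alpha, 0.99 ± 0.17 in beta and -0.75 ± 0.23 in delta cells (SD, n = 6). Delta cells lay below beta cells by -1.74 and below alpha cells by -1.28 on the log2 scale, with no overlap and an adjusted p of 0.009 each in the exact permutation test. Alpha and beta cells overlapped and differed by -0.46, with an adjusted p of 0.0225. The last call was lost, with adjusted p of 0.0525, on leaving out alpha control 1, alpha control 3 or beta IFNγ 3. Against glucagon, Ppy was 0.0313 to 0.0777 times Gcg in alpha libraries and 0.408 to 1.19 times in beta libraries. The log2 difference of alpha minus beta cells was -3.79, with no overlap and an adjusted p of 0.009 in the exact test. The source of the Ppy in beta libraries was not tested. Delta libraries held 1.44 to 85.7 times as much Ppy as Gcg and 2.44 to 178 times as much Pyy as Gcg. The Pyy to Gcg ratio was 0.0168 to 0.0627 in alpha and 0.204 to 0.661 in beta libraries, again apart with an adjusted p of 0.009 (exact test). Of the 18 comparisons of ratios, 12 passed the threshold. Where the denominator, Ins2 or Gcg, is the main hormone of a sort being compared, a difference follows in part from that choice.

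**Figure D4:**
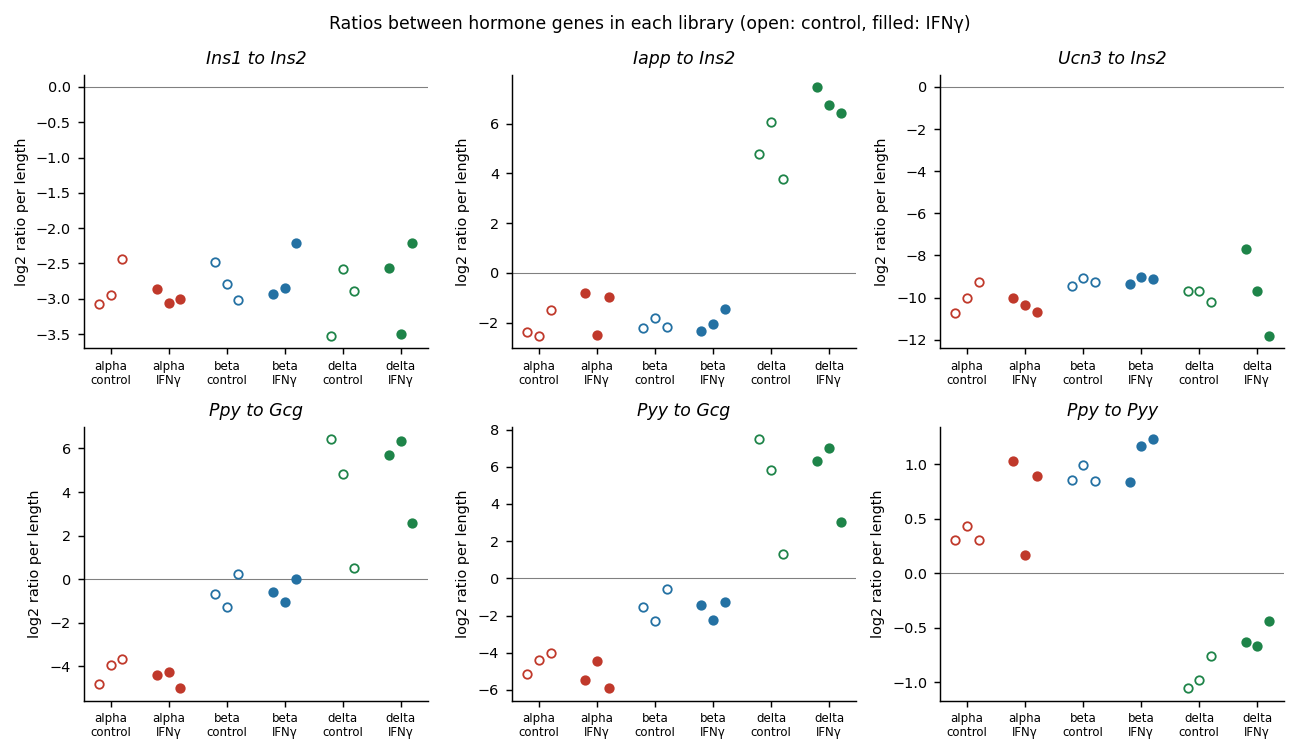
Log2 ratio per length of 6 pairs of hormone genes, with 1 point per library in 6 groups of 3, open for control and filled for IFNγ. Ins1 to Ins2 overlaps between all cell types, Iapp to Ins2 is above 0 in delta libraries only, and Ppy to Pyy is below 0 in delta libraries and above 0 in alpha and beta libraries.

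Ghrl encodes ghrelin, the hormone of epsilon cells, which is acylated before it acts on the GHSR receptor. It lies on chromosome 6 from 113716119 to 113719880, where Gm26982 and Gm44033 overlap it on the other strand with the same uncertainty. Its counts were low and uneven. Delta control 2 held 18.2 CPM, beside 4.58 and 0.519 in delta controls 1 and 3, and delta IFNγ libraries held 0.278, 4.20 and 0.410. Alpha IFNγ 1 held 9.14 CPM, while the other 5 alpha libraries lay between 0.214 and 1.45. Beta libraries reached at most 0.456 CPM, which is 3 counts. Over the controls, 221 counts in delta and 8 in beta cells gave a ratio of 20.8 with a 95% counting interval from 10.4 to 48.8. The fitted difference passed the threshold (log2 fold change 4.35, SE 1.36, adjusted p = 0.0285) but lost it on leaving out delta control 2 (adjusted p = 0.190) or any 1 of the beta controls (adjusted p from 0.0715 to 0.103), and with the date as a term (1.26, adjusted p = 0.492).

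The effect of IFNγ was tested in each cell type, and no hormone gene was called. In alpha cells edgeR called 0 of 9, beside 0.975% of all genes (0.94% higher and 0.0346% lower), with 1 of 9 at an unadjusted p under 0.05 (Ucn3). In beta cells it called 0 of 9, beside 1.06% of all genes (1.06% higher and 0.00577% lower), with none at an unadjusted p under 0.05. In delta cells 0 of 9 were called, beside 1.39% of all genes (1.21% higher and 0.185% lower), with 3 at an unadjusted p under 0.05 (Ins1, Ins2 and Pyy). DESeq2 called 0 hormone genes in each. The fitted values were below 0 for 8 of 9 genes in alpha, 7 of 9 in beta and 9 of 9 in delta cells, with medians of -0.71, -0.13 and -1.81 on the log2 scale beside -0.01, 0 and -0.05 over all genes. The standard errors of the 27 log2 fold changes ran from 0.47 to 1.81, so the intervals are wide and do not exclude sizeable changes. Without the filter on low counts, edgeR called 5 of 9 in alpha, 0 in beta and 7 in delta cells, all of them lower with IFNγ except Ghrl in alpha cells, beside 1436 of 32335 genes in alpha and 592 in delta cells.

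Main hormones in their own cells showed the following values with IFNγ. Gcg in alpha IFNγ cells was 74633, 88997 and 111587 CPM, which overlapped the controls (log2 fold change -0.05, 95% interval -2.28 to 2.18, adjusted p = 0.984). Ins1 in beta IFNγ cells was 10858, 11674 and 11328 CPM (log2 fold change -0.16, 95% interval -1.66 to 1.34, adjusted p = 1). Ins2 was 30178, 29596 and 17515 CPM there, with beta IFNγ 3 below all other beta libraries (log2 fold change -0.13, 95% interval -1.66 to 1.40, adjusted p = 1). Iapp and Ucn3 in beta cells had log2 fold changes of -0.12 (95% interval -1.23 to 0.98) and -0.16 (-1.17 to 0.85). On the 2 dates shared by both treatments of beta cells, the log2 difference of Ins2 was 0.01 and 0.22 and that of Ins1 -0.46 and 0.12.

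Sst in delta IFNγ cells was 9561, 14003 and 14819 CPM, against 35919, 34772 and 14715 in the controls. Delta control 3 stood with the IFNγ libraries, so the groups overlapped. The mean was 0.449 of the control mean, and the log2 fold change of -1.15 (SE 0.91, 95% interval -3.07 to 0.76, adjusted p = 0.656) did not pass the test. Pyy was likewise lowest in delta control 3 among the controls, with 1443, 2069 and 2328 CPM with IFNγ (log2 fold change -1.16, SE 0.49, adjusted p = 0.369), and without delta control 3 it fell short of the threshold too (-1.47, adjusted p = 0.219). Ppy was 784, 1200 and 1462 CPM in delta IFNγ cells, with a log2 fold change of -0.77 (SE 0.47, adjusted p = 0.547). Sst was thus not shown to change. Its share of the hormone genes did not separate the treatments, but a share cannot show a fall that the other hormone genes have in common. In delta cells the mean CPM with IFNγ was 0.447 of the control mean for Pyy, 0.587 for Ppy and 0.710 for Iapp.

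Hormones of other cells had the larger fitted changes. In delta cells, Ins2 went from 71.2, 45.0 and 196 CPM to 8.91, 10.3 and 33.4, without overlap, and Ins1 from 20.9, 24.7 and 84.6 to 4.87, 3.06 and 21.6, with overlap. The log2 fold changes were -2.55 (SE 0.78, adjusted p = 0.170) for Ins2 and -2.10 (SE 0.77, adjusted p = 0.284) for Ins1. The median of the 12 other beta markers moved the same way, from 1.03% to 4.03% of the beta control mean in delta controls to 0.712% to 1.35% in delta IFNγ libraries, and its part in the insulin values was not tested. Gcg in delta cells had a log2 fold change of -1.81 (SE 1.1, adjusted p = 0.541), which became 0.61 (adjusted p = 0.811) without delta control 3. With the date as a term it was -5.00 with an adjusted p of 0.00547, in a fit where dates and treatments of delta cells are not crossed. Ucn3 in delta cells went from 13 to 1 summed counts, a ratio of 0.0829 with a 95% counting interval from 0.00195 to 0.552.

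In alpha cells, Ucn3 had a log2 fold change of -1.71 with IFNγ (SE 0.56, adjusted p = 0.152), Ins1 one of -1.39 (SE 0.73, adjusted p = 0.264), Ins2 one of -1.34 (SE 0.74, adjusted p = 0.286) and Sst one of -1.21 (SE 0.95, adjusted p = 0.449). These values rested on alpha control 2: without it they were -0.31 for Ucn3, -0.13 for Ins1, -0.01 for Ins2 and 0.32 for Sst. On the date without that library the log2 differences were 0.31 for Ucn3, -0.04 for Ins1, -0.08 for Ins2 and -0.29 for Sst. Leaving out alpha IFNγ 2 made Ucn3 a call (-2.08, adjusted p = 0.0330). Ppy and Pyy in alpha IFNγ cells were 1241, 1953 and 1306 CPM and 718, 1953 and 819 CPM, with log2 fold changes of -0.52 (SE 0.47, adjusted p = 0.516) and -0.71 (SE 0.49, adjusted p = 0.386). Alpha IFNγ 2 was at the control level in both, and the other two were below it. Ghrl in alpha cells had 122 counts with IFNγ, 106 of them in alpha IFNγ 1, against 20 in the controls (log2 fold change 2.01, SE 1.20, adjusted p = 0.319).

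Sst in beta cells was 20.6, 22.3 and 34.0 CPM with IFNγ, beside 68.8, 55.7 and 0 in the controls, and was not called (log2 fold change -0.69, SE 0.93, adjusted p = 1). When the fit was limited to the 2 dates that held both treatments, with the date as a term, Sst was lower with IFNγ in beta cells (-1.53, adjusted p = 2.28e-04) and in alpha cells (-1.77, adjusted p = 0.0118). In beta cells those dates gave 20.6 against 68.8 CPM and 22.3 against 55.7 CPM, and in alpha cells 12.8 against 15.7 and 8.03 against 74.1. Each of these fits has 2 libraries per group and a date term, so its spread rests on few residual degrees of freedom. Left out were beta control 3, the library at 0, and beta IFNγ 3. In alpha cells, alpha control 3 (6.84 CPM) and alpha IFNγ 1 (20.9 CPM) were left out. The alpha difference was large only against alpha control 2, the library at 74.1 CPM.

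The response to IFNγ was also compared between cell types, and 0 of 9 hormone genes were called for alpha minus beta, delta minus beta or delta minus alpha cells, where edgeR called 0% of the 17338 genes. At an unadjusted p under 0.05 these differences had 0, 1 and 1 of the hormone genes, and 2305, 822 and 783 of all genes. DESeq2 called 0 hormone genes and 7, 4 and 6 genes in all.

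**Figure D5:**
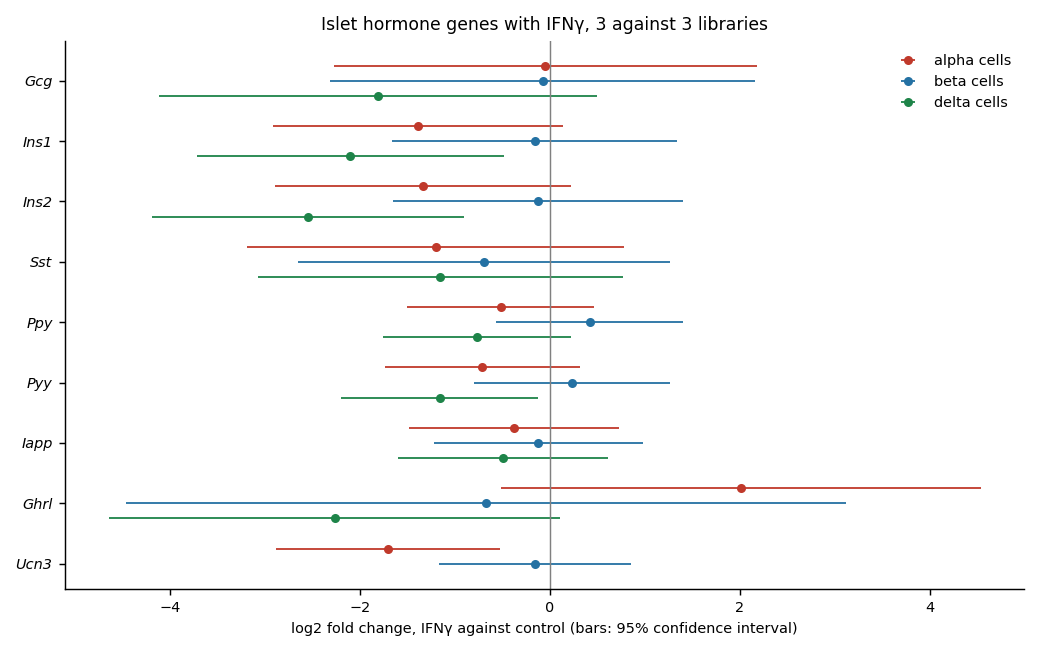
Log2 fold change of each hormone gene with IFNγ against control, 3 against 3 libraries, in alpha, beta and delta cells, with 95% confidence intervals. The intervals of Gcg in alpha cells and of Ins1, Ins2, Iapp and Ucn3 in beta cells are centred near 0, and most points for delta cells lie left of 0; Ucn3 in delta cells is not drawn because the IFNγ libraries held 1 count.

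Genes around the hormones were read from 4 lists. Of 11 prohormone processing genes 10 were tested. Between alpha and beta controls 5 were called, 3 higher in alpha cells and 2 lower, beside 19.7% of all genes. Pcsk1, which encodes prohormone convertase 1/3, the enzyme that begins proinsulin cleavage, had 628 ± 218 CPM in beta, 94.5 ± 25.3 in delta and 70.7 ± 76.6 in alpha controls (log2 fold change -3.15 for alpha, adjusted p = 0.00506, and -2.73 for delta against beta, adjusted p = 0.0112). In single alpha controls it was 31.1, 159 and 22.1 CPM, highest in alpha control 2. Pcsk1n, whose product proSAAS inhibits that enzyme, was higher in alpha (986 ± 112 CPM) than in beta controls (229 ± 66.9, adjusted p = 0.0109). Cpe, the carboxypeptidase of hormone granules, was lower in delta controls (1139 ± 144 CPM) than in alpha (1980 ± 67.3, adjusted p = 0.00933) or beta controls (1839 ± 190, adjusted p = 0.0208). Between delta and beta controls 1 gene of this list was higher and 3 were lower, beside 20.5% of all genes called. Between delta and alpha controls 2 were higher and 3 lower, beside 19.7% of all genes. Median log2 fold changes of the list were 0.25, -0.15 and -0.51 in the 3 comparisons of controls.

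Transcription factors known at islet hormone genes differed between the sorts for many of the genes tested. Of 21 listed, 19 were tested, and beside 19.7%, 20.5% and 19.7% of all genes called, the counts of higher and lower genes were 5 and 5 for alpha against beta, 3 and 6 for delta against beta, and 6 and 10 for delta against alpha controls. Irx2 and Irx1, homeobox genes of alpha cells, had 142 ± 15.4 and 104 ± 16.3 CPM in alpha controls and 3.55 ± 1.89 and 1.46 ± 1.83 in beta controls (adjusted p = 3.06e-08 and 1.11e-06). Hhex, which maintains the delta cell state, had 206 ± 17.9 CPM in delta controls, 0.276 ± 0.382 in beta controls and 0 in alpha controls (adjusted p = 2.18e-09 against beta). Mafa, an activator of the insulin genes, had 276 ± 185 CPM in beta and 0.884 ± 0.694 in delta controls (adjusted p = 4.89e-06), and Nkx6-1 290 ± 119 and 14.7 ± 2.12 (adjusted p = 7.64e-08). Glis3 was lower in alpha (47.7 ± 2.07 CPM) than in beta controls (118 ± 12.1, adjusted p = 3.47e-06).

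Of the 20 receptors of these hormones 11 were tested. Ghsr, the ghrelin receptor, had 120 ± 15.7 CPM in delta controls, 0.310 ± 0.142 in beta and 0.0841 ± 0.0753 in alpha controls (adjusted p = 1.04e-09 and 7.59e-10). Somatostatin receptors were divided, Sstr2 at 24.9 ± 3.53 CPM in alpha, 0.592 ± 0.451 in beta and 1.06 ± 0.119 in delta controls, and Sstr1 at 18.2 ± 5.52 in delta and 0.215 ± 0.118 in beta controls. The adjusted p of Sstr2 was 6.48e-08 for alpha against beta and 7.13e-08 for delta against alpha cells, and that of Sstr1 was 1.96e-07 for delta against beta cells. Gcgr, the glucagon receptor, was highest in beta controls (31.3 ± 4.08 CPM, against 2.01 ± 0.894 in alpha, adjusted p = 1.61e-06, and 5.18 ± 2.16 in delta, adjusted p = 3.33e-05), and Glp1r had 1186 ± 98.6 CPM there against 57.7 ± 49.0 in alpha controls (adjusted p = 2.06e-05). In all, 1 receptor was higher and 4 lower in alpha than in beta controls, 4 and 4 in delta than in beta, and 5 and 1 in delta than in alpha controls. The shares of all genes called in these comparisons were 19.7%, 20.5% and 19.7%.

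Of 35 other peptide hormone genes 10 passed the low-count filter. Edn3, for endothelin 3, had 86.8 ± 21.5 CPM in alpha controls against 1.21 ± 1.17 in beta and 2.23 ± 1.69 in delta controls (adjusted p = 1.27e-06 and 1.67e-06). The granins, acidic proteins of secretory granules, were uneven: Chga was lower in delta (1332 ± 86.7 CPM) than in beta controls (3717 ± 157, adjusted p = 5.49e-04), and Chgb higher in delta (2913 ± 1087) than in alpha controls (599 ± 181, adjusted p = 5.07e-05). Vgf was lower in delta (7.89 ± 2.45 CPM) than in beta (31 ± 10.2, adjusted p = 0.00187) and alpha controls (82.6 ± 32.9, adjusted p = 1.45e-05), and Igf2 was higher in beta controls (5.03 ± 1.62 CPM) than in alpha (0.829 ± 0.259) and delta controls (0.748 ± 0.0919). Nucb2, the precursor of nesfatin-1, had 80.3 ± 43.0 CPM in alpha and 242 ± 70.9 in beta controls (adjusted p = 0.0123). The list had 2 higher and 3 lower genes for alpha against beta, and 1 and 3 for each comparison with delta controls. Of all genes, 19.7% were called for alpha against beta, 20.5% for delta against beta and 19.7% for delta against alpha controls.

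Nts, the gene of the gut peptide neurotensin, was the 1 gene of the 4 lists that edgeR called for IFNγ. It rose in alpha cells from 0.291, 0.401 and 0.321 CPM to 13.1, 2.71 and 3.00 (log2 fold change 4.16, SE 0.92, adjusted p = 0.0369), without overlap, and the highest value was in alpha IFNγ 1, the library with the most Ghrl of the alpha cells. In alpha controls 1, 2 and 3, a value of 3 counts corresponds to 0.436, 0.401 and 0.321 CPM. Each control thus held at most 3 Nts counts, and the size of the fold change rests on that low baseline. DESeq2 did not call Nts, and called 1 other gene of these lists in alpha cells, Rfx3 of the transcription factors. In delta cells Nts was at 0, 0 and 0.311 CPM in controls and 0.557, 1.27 and 0.738 with IFNγ. No gene of the processing, transcription factor or receptor lists was called for IFNγ by edgeR, while 1, 4 and 5 of them were at an unadjusted p under 0.05 in alpha cells, none in beta cells and 2, 1 and 1 in delta cells. Of all genes edgeR called 0.975% in alpha, 1.06% in beta and 1.39% in delta cells. At an unadjusted p under 0.05 there were 3751, 738 and 2021 of the 17338 genes.

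The genes whose levels ran most like each hormone over the 18 libraries were ranked by Pearson's r of log2 CPM, as a description across cell types that share libraries. Gcg ran with Pdk4 (r = 0.984), Ttr (0.975) and Ppp1r3b (0.973). Pdk4, a kinase that holds back pyruvate oxidation, had 164 CPM in alpha controls and 2.39 and 1.89 in beta and delta controls. Ins1 ran with Gabbr2 (0.990), Tmem163 (0.985) and Sytl4 (0.984), and Ins2 with Gabbr2 (0.987), Adh1 (0.983) and Sytl4 (0.982). Ucn3 ran with Prss53 (0.989), Mafa (0.988) and Nkx6-1 (0.987). Sst had Shank2 (0.974), S100a16 (0.962) and Nfib (0.958). Iapp had Elovl5 (0.986), Kpna2 (0.981) and Vil1 (0.976), all of them intermediate in delta cells, as with Elovl5 at 141 CPM in beta, 94.5 in delta and 34.1 in alpha controls. Ppy had Notch2 (0.961), Sybu (0.947) and Fev (0.946), and Pyy had Klhdc8b (0.979), Sorcs2 (0.969) and Tmem59l (0.969). Fev, a transcription factor of serotonergic neurons and of endocrine precursors, had 29.7 CPM in alpha, 19.4 in delta and 0.756 in beta controls. Ghrl had no close partner, with Nxnl2 at 0.834. Among the hormone genes themselves r was 0.996 between Ins1 and Ins2 and 0.942 between Ppy and Pyy, but 0.363 between Iapp and Ins2 and -0.560 between Gcg and Sst.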

How the data were processed

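RNA was measured in 18 libraries of sorted mouse islet cells. The authors made rRNA-depleted libraries, aligned reads with STAR 2.5.2b to GRCm38 and deposited RSEM expected counts, TPM and effective lengths per gene, where TPM is scaled to gene length and to a fixed library sum. The libraries were strand-specific, and the use of strand or molecular identifiers in counting was not given in the sources used here. Expected counts were rounded, filtered (filterByExpr, minimum count 10, 17338 genes kept), scaled by TMM and tested with edgeR 4.0.16 in R 4.3.3, in a single fit of 6 group means without a block. Exact permutation tests ran in scipy 1.17.1: ratios used expected counts plus 0.5, divided by effective length, with cell types exchanged within treatments (400 arrangements). Intervals of counts cover counting error only. DESeq2 1.42.0, other filters, scalings, dates and left-out libraries were alternatives. Tests were checked on simulated data. Same-numbered beta control and IFNγ libraries deviated together (correlations 0.223, 0.192 and 0.126). They were taken as pairs in alternative fits only, and the main fit did not use the pairs. The numbers are those of the labels, of which 1 and 2 share a file date. Alpha and delta numbers were not taken as pairs (not every correlation over 0.1). Replicates differed by more than sampling noise (chi-square per gene at least 10.6).

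The named genes were the 9 hormone genes, the 3 most correlated genes of each, and up to 3 genes of smallest adjusted p from each of 4 lists. A gene that this rule also names is not reported here. The members and lists were chosen with earlier results of these data known. No genome was used; promoter sequences are RefSeq's on GRCm38.p6.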

Additional observations from a re-analysis of the deposited data

How the results depend on the processing

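Calls between cell types were stable in number: over the alternatives run, 7 to 8 hormone genes were called between alpha and beta controls, 6 to 8 between delta and beta controls and 6 to 8 between delta and alpha controls, and 7 to 9, 6 to 9 and 6 in the same comparisons of IFNγ-treated cells. Leaving out 1 library gave 7 in the first, 6 to 8 in the second and 6 to 7 in the third. No result reversed a call. Over all alternatives for single genes and ratios, 3189 results stayed on their side of the threshold, 56 gained a call and 17 lost it. Without the low-count filter, 5 hormone genes were called for IFNγ in alpha cells and 7 in delta cells, and 1, 4 and 2 for the response of alpha minus beta, delta minus beta and delta minus alpha cells, where the filtered fit called 0; 32335 genes were then tested, and the cause was not tested. The date as a fixed term gave 1 call in delta cells and 1 for delta minus alpha cells (Gcg in both), and the fit on 2 shared dates 1 in alpha and 1 in beta cells (Sst in both). Leaving out 1 library gave 0 to 1 calls for IFNγ in alpha cells and 0 in the other treatment comparisons. Fits on the libraries of 1 cell type alone, added after seeing the data, called 0 hormone genes for IFNγ. Of the 18 ratio comparisons 12 passed, and 11 to 13 with 1 library left out. The own hormone share moved by -3.46 and 16.6 points within the 2 dates of alpha cells and by 3.77 on the later shared date of beta cells, and by 1.81 to 10.1 points in alpha, -3.71 to 1.02 in beta and -6.89 to 0.277 in delta cells with 1 library left out.

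Same-numbered control and IFNγ libraries had correlations of their deviations from -0.194 to 0.0943 in alpha cells and from -0.0483 to 0.279 in delta cells, where the numbers were not taken as pairs. In beta cells, which were paired, a fit of the 6 libraries alone with the replicate block, added after seeing the data, called 0 of the 8 hormone genes that passed its filter. With the replicate block in the fit of all libraries, the calls were 0 for each IFNγ comparison and each difference of responses, 7, 7 and 6 for the comparisons of controls and 7, 8 and 6 for those of treated cells. Depth limits Ghrl and, outside beta cells, Ucn3, which rest on few counts.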
